A study of Mus musculus with 6 samples.

Results

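The genes examined were 5 regulators of the passage from G1 into S phase, namely Cdkn1b, Cdkn1a, Ccnd1, Ccnd3 and Cdk4, of 8513 genes measured in B16.F10 cells. They were taken by gene symbol, and every transcript of each gene was kept, which gave 15 of the 15905 transcripts. B16.F10 is a mouse melanoma cell line, and the labels enter its genotype as wild type, which was not checked here. One group of 3 samples received 3.5 µM simvastatin for 24 h, and the other group of 3 samples was left without treatment. Simvastatin belongs to the statins, inhibitors of the enzyme that makes mevalonate, from which cells build cholesterol and the lipid anchors of small GTPases. All 6 samples came from the same cell line and carried the same batch date, so the comparison describes 1 line under 1 dose and time. The dose is given in the labels as the IC50, and the label of the control names no vehicle. The question here was which of the G1 regulators had group values that stood beside the lower values of DNA replication genes.

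D-type cyclins bind CDK4 or CDK6, and the active kinase phosphorylates the retinoblastoma protein, which frees E2F factors to switch on genes of DNA replication. The proteins p27, made from Cdkn1b, and p21, made from Cdkn1a, bind cyclin and CDK complexes. They block CDK2 and can also help cyclin D and CDK4 assemble. In melanoma this step is a frequent point of change, through the CDK4 inhibitor locus, CDK4 itself or cyclin D1. Both p27 and the D cyclins are controlled to a large extent by protein breakdown, which RNA measurements do not show.

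The DNA just upstream of 4 of the 5 genes is printed here because the members differ in the short motifs it holds, and because Cdkn1a and Ccnd3 have several starts. Each window holds the 250 bases before a transcription start, 5′ to 3′ on the plus strand, from RefSeq on GRCm38.p6. The capitals mark CCAAT boxes in the windows of Cdkn1b at chr6:134920151-134920400 and Ccnd3 at chr17:47593217-47593466. They mark CACGTG, the core E-box, in that of Cdk4 at chr10:127063285-127063534. In the upstream Cdkn1a window at chr17:29090729-29090978 they mark a pair of CATG cores with 6 bases between, and in the proximal one at chr17:29093519-29093768 the GC box GGGCGG.
Cdkn1b: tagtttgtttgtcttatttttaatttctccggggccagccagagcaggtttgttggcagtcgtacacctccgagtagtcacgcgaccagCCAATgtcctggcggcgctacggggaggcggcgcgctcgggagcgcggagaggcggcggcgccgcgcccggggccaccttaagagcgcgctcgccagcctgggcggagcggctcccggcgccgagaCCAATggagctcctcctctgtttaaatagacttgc
Cdkn1a, upstream start: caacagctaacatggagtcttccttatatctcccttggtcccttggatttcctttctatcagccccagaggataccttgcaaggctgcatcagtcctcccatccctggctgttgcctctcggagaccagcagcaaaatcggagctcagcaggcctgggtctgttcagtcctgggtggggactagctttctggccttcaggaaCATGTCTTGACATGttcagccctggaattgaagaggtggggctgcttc
Cdkn1a, proximal start: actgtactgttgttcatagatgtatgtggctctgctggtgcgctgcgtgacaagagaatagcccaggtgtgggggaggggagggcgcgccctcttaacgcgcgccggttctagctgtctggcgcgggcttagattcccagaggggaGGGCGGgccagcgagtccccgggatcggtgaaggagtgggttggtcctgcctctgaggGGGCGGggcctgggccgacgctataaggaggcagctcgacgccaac
Ccnd3: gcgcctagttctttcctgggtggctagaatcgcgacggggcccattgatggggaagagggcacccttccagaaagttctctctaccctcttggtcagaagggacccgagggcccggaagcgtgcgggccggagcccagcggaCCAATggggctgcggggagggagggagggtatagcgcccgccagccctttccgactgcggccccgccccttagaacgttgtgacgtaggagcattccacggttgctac
Cdk4: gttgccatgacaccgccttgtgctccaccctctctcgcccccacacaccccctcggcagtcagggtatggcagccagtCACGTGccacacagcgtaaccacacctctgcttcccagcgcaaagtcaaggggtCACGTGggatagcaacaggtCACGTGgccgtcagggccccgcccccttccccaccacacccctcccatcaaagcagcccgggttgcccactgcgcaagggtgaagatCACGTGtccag

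The motifs were searched on both strands, and no matches of different motifs overlapped in the windows shown. The Cdk4 window held CACGTG 4 times, at 6 to 11, 93 to 98, 113 to 118 and 167 to 172 bases before the start. The motif was found in 6.02% of the 32851 RefSeq windows of this length, and only 7 of those windows, 0.0213%, held it at least 4 times. The cut at 4 was taken from the Cdk4 window itself, so this rarity supports nothing. It is the core sequence that MYC and MITF family proteins are known to bind. The Cdkn1b window held CCAAT, the box bound by NF-Y, at 31 to 35 and at 157 to 161 bases before the start, and the Ccnd3 window held it once, at 104 to 108 bases. CCAAT was found in 33.8% of all windows.

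The upstream Cdkn1a window held the match CATGTCTTGACATG at 35 to 48 bases before that start. A pair of CATG with 6 bases between carries the core letters of a p53 site, and 0.49% of all windows held such a pair. This pattern was chosen after the window had been seen, so its rarity supports nothing. GGGCGG, the box bound by SP1, lay in at least 1 window of each of the 4 matched members. Counted the same way, it was found for 35.4% of all genes and for 33 of the 44 matched DNA replication genes. TTTNNCGC, an E2F-type core, was in no window of the 4 members, and was found for 4.94% of all genes. For so few members a count of 0 is near that share. It was found for 11 of the 44 replication genes. The replication genes were above the share of all genes for other motifs too. CCAAT was found for 26 of the 44, beside 37.5% of all genes, and CACGTG for 7, beside 6.86%. GTAAACA, a FOXO-type core, was found for 1 member, in an upstream Ccnd3 window not shown. It was in no Cdkn1b window, and was found for 3.54% of all genes. A match describes letters in the DNA and does not show that a protein was bound there.

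None of the 15 transcripts passed the adjusted p threshold of 0.05 in the authors' deposited table, where 2.09% of all transcripts passed. An unadjusted p under 0.05 was given for 4 of the 15 in the authors' deposited table, or 26.7%, beside 19.6% of all transcripts. The authors' own call, which goes up to an adjusted p of 0.2 with a fold of at least 1.5, was given to 1 of the 15, the transcript of Ccnd1, beside 9.5% of all transcripts. By their most abundant transcript, 0 of the 5 genes passed the adjusted threshold in the authors' deposited table, beside 3.15% of all genes, and 3 had an unadjusted p under 0.05, beside 28.5%. Values were higher with simvastatin for 7 of the 15 and lower for 8. Each group has 1 deposited value per transcript and none per sample. No SD could be computed, and whether single samples of the groups overlapped cannot be seen. Their unit is not stated either, so single genes are not ranked by level, and sums over a list serve only to set the groups side by side.

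**Figure D1:**
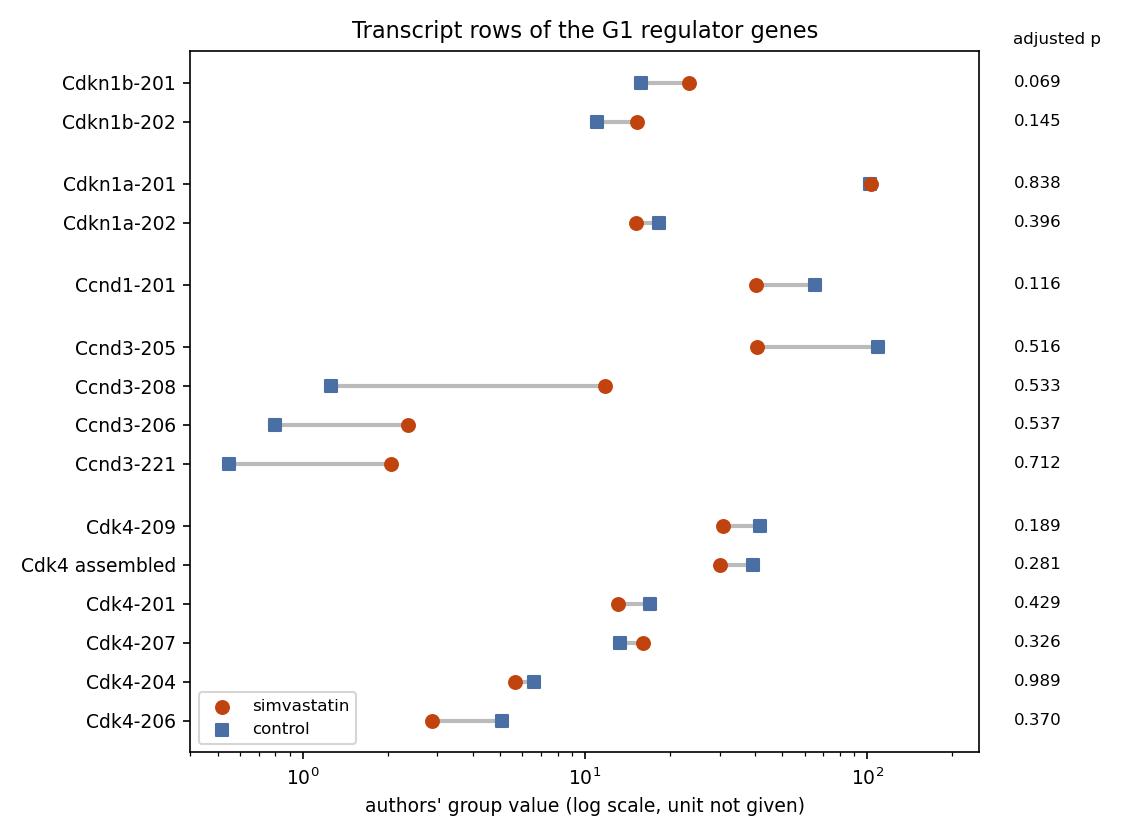
Authors' group value on a log axis (unit not given) for each of the 15 transcripts, with circles for simvastatin, squares for control, and the authors' adjusted p at the right. Both Cdkn1b circles lie right of their squares, Ccnd1-201 and Ccnd3-205 lie the other way round, and the smallest adjusted p is 0.069.

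Cdkn1b encodes p27, an inhibitor that holds cells in G1. The gene lies on chromosome 6 at 134920401 to 134925513 (GRCm38, plus strand), and was measured as 2 transcripts that share a start, an end and an open reading frame of 197 codons. Cdkn1b-201 had a group value of 23.3 with simvastatin and 15.8 in control. That was a fold of 1.48 with p = 0.003 and adjusted p = 0.069 in the authors' deposited table. Cdkn1b-202, which differs by its splicing outside the reading frame, had 15.4 with simvastatin and 11.0 in control, a fold of 1.39 with p = 0.017 and adjusted p = 0.145 in the authors' deposited table. Both values were therefore higher with simvastatin, and neither passed the threshold. Their sum was 38.6 with simvastatin and 26.8 in control, a log2 ratio of 0.53, and 83.7% of genes had a lower log2 ratio of totals. The first transcript made up 60.3% of the sum with simvastatin and 58.9% in control, so the pair kept nearly the same proportions.

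Cdkn1a encodes p21, the inhibitor best known as a p53 target. It lies on chromosome 17 at 29090976 to 29100727 (plus strand), with 2 measured transcripts whose starts are 2790 bases apart and whose reading frame of 159 codons is the same. Cdkn1a-201, from the proximal start, had 103 with simvastatin and 102 in control, a fold of 1.01 with adjusted p = 0.838 in the authors' deposited table. Cdkn1a-202, from the upstream start beside the paired CATG match, had 15.2 with simvastatin and 18.2 in control, a fold of -1.20 with p = 0.109 and adjusted p = 0.396 in the authors' deposited table. The minus sign of a fold means a lower value with simvastatin. The gene totals were 119 with simvastatin and 121 in control, a log2 ratio of -0.025. This sign is not stable, since the log2 ratio was 0.17 when each group was scaled to its sum and 0.013 for the most abundant transcript alone. The upstream transcript held 12.8% of the total with simvastatin and 15.1% in control.

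Ccnd1 encodes cyclin D1, an activating partner of CDK4 and CDK6 that growth factor signals raise. It lies on chromosome 7 at 144929931 to 144939925 (minus strand) and was measured as 1 transcript of 5 exons with a reading frame of 295 codons. It had a group value of 40.4 with simvastatin and 65.6 in control. The fold was -1.62 with p = 0.011 and adjusted p = 0.116 in the authors' deposited table, short of the threshold but inside the limits of the authors' own call. The log2 ratio was -0.70, and 9.37% of genes had a lower one. LTO1, a gene on the opposite strand that overlaps it, had totals of 3.41 with simvastatin and 6.92 in control. The library kit marks strand per the labels, but whether the counting used strand is not stated, and the part of the overlapping gene in the Ccnd1 value was not tested.

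Ccnd3 encodes cyclin D3, which has the same partners. It lies on chromosome 17 at 47505051 to 47599691 (plus strand), and its 4 measured transcripts had the largest folds among the members, each of 2 or more, but no p under 0.182 in the authors' deposited table. Ccnd3-205, with all 5 coding exons and 292 codons, had 40.6 with simvastatin and 109 in control, a fold of -2.69 with p = 0.182 and adjusted p = 0.516 in the authors' deposited table. The other transcripts had higher values with simvastatin. Ccnd3-208 starts 2598 bases further on and carries 2 coding exons with 96 codons, and it had 11.8 with simvastatin and 1.26 in control (fold 9.39, p = 0.194, adjusted p = 0.533 in the authors' deposited table). Ccnd3-206, annotated as a retained intron, had 2.36 with simvastatin and 0.80 in control, with adjusted p = 0.537 in the authors' deposited table. Ccnd3-221, which starts 2854 bases after Ccnd3-205, had 2.05 with simvastatin and 0.55 in control, with adjusted p = 0.712 in the authors' deposited table.

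Summed over its transcripts, Ccnd3 had 56.8 with simvastatin and 112 in control, a log2 ratio of -0.98, and 4.83% of genes had a lower one. The transcript with the full reading frame made up 71.5% of the total with simvastatin and 97.7% in control. Ccnd3-208 made up 20.8% of it with simvastatin and 1.13% in control. The 3 transcripts other than Ccnd3-205 came to 16.2 with simvastatin and 2.61 in control. Among genes with several transcripts, 62.0% of transcripts with a mean value of at least 10 and a fold of at least 2 had a p over 0.1 in the authors' deposited table, as Ccnd3-205 did, beside 20.6% among genes with 1 transcript. Reads shared between transcripts of a gene have to be divided among them by estimation, and the part of that step in the Ccnd3 values was not tested. A processed pseudogene, Ccnd3-ps, is annotated elsewhere in the genome, and Bysl overlaps Ccnd3 on the opposite strand with totals of 13.3 with simvastatin and 15.3 in control.

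**Figure D2:**
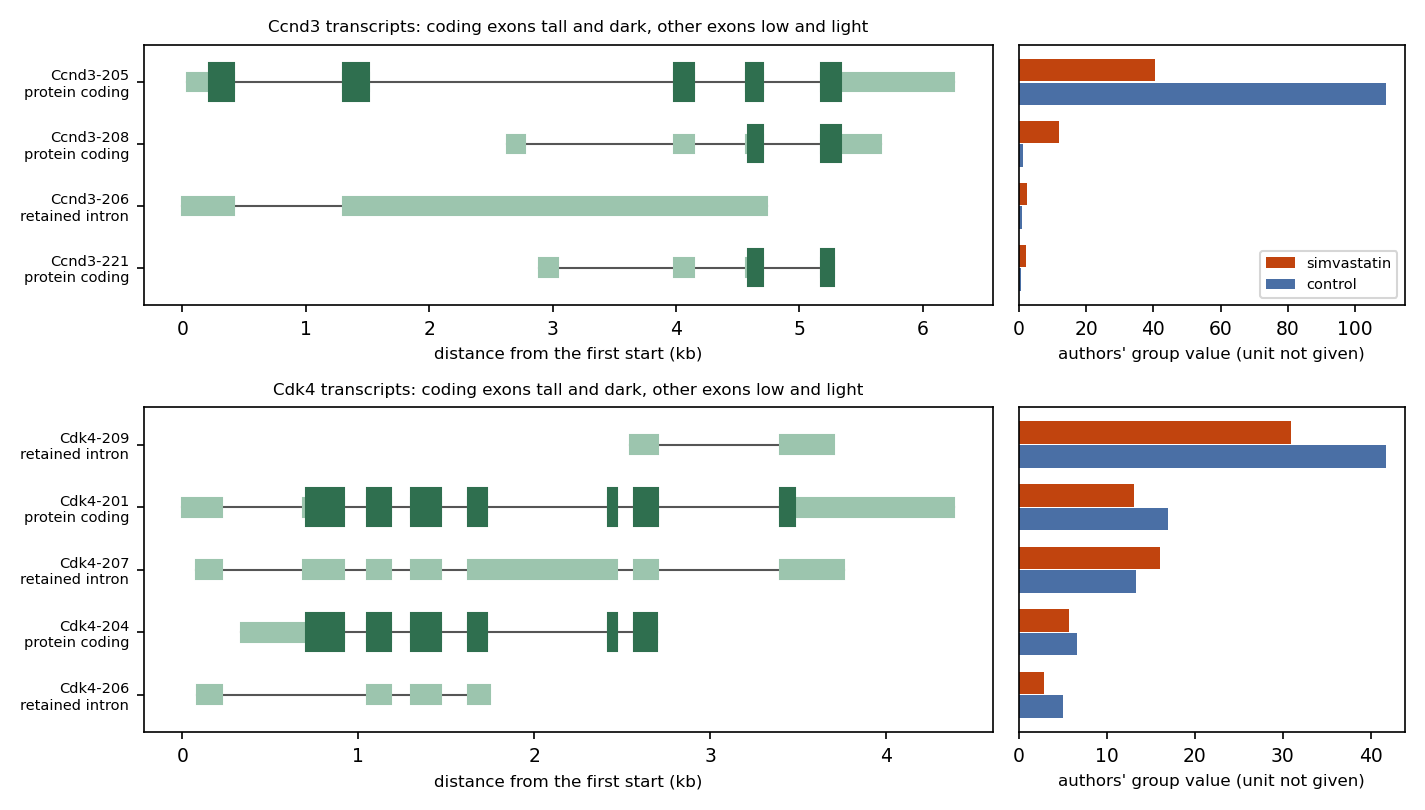
Exon maps of the annotated Ccnd3 and Cdk4 transcripts, drawn to scale against distance in kb from the first start, with bars at the right for the authors' group values (simvastatin above control, axes from 0, unit not given). Ccnd3-205 with all coding exons has the shorter simvastatin bar (40.6, against 109 in control), while the late-starting Ccnd3-208 has the longer one (11.8, against 1.26 in control), and Cdk4-207 is the 1 Cdk4 transcript with a longer simvastatin bar.

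Cdk4 encodes the kinase that D cyclins activate. It lies on chromosome 10 at 127063534 to 127067920 (plus strand) and was measured as 6 transcripts, of which 5 had lower values with simvastatin. Cdk4-201, with the whole reading frame of 303 codons, had 13.1 with simvastatin and 16.9 in control, a fold of -1.29 with adjusted p = 0.429 in the authors' deposited table. The smallest p among the 6 belonged to Cdk4-209, annotated as a retained intron, with 30.9 with simvastatin and 41.8 in control (fold -1.35, p = 0.028, adjusted p = 0.189 in the authors' deposited table). A model assembled from the reads had 30.1 with simvastatin and 39.5 in control, with adjusted p = 0.281 in the authors' deposited table. Its exons are not given in the table, so it is missing from the exon maps.

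The other Cdk4 transcripts were Cdk4-204, Cdk4-206 and Cdk4-207, with adjusted p from 0.326 to 0.989 in the authors' deposited table. Cdk4-207, which keeps an intron of the gene, was the only one with a higher value, at 16.04 with simvastatin and 13.26 in control. It held 16.2% of the Cdk4 total with simvastatin and 10.8% in control. Cdk4-206, another retained intron form, had 2.88 with simvastatin and 5.07 in control. The 3 retained intron forms together held 50.5% of the total with simvastatin and 48.8% in control. The gene totals were 98.7 with simvastatin and 123 in control, a log2 ratio of -0.32, close to the lower quartile of all genes at -0.32. Tspan31, which overlaps on the opposite strand, had 29.1 with simvastatin and 29.6 in control.

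**Figure D3:**
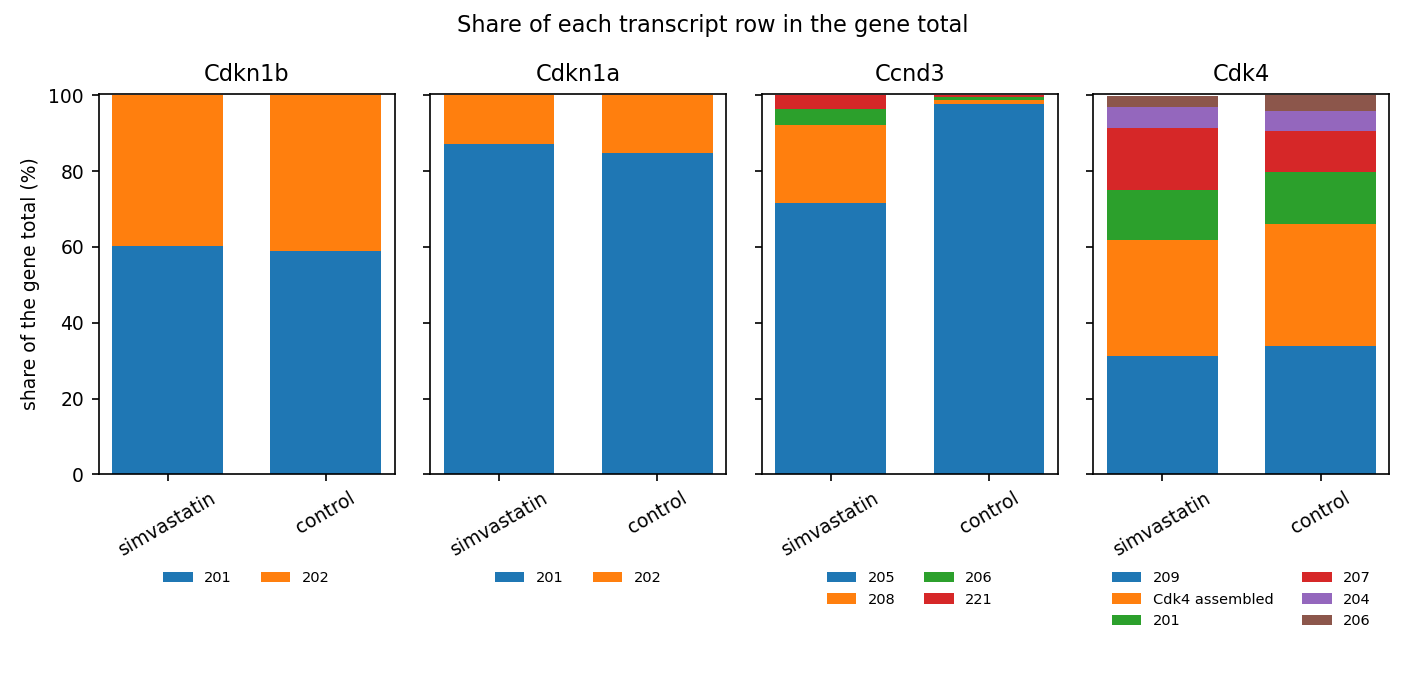
Share of each transcript in its gene total in percent, with the simvastatin bar left of the control bar for the 4 genes with several transcripts, and numbers in the legends for the transcript names. The Cdkn1b and Cdkn1a bars are divided nearly alike in the groups, while Ccnd3-205 takes 71.5% of the simvastatin bar and 97.7% of the control bar.

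Set in order of their log2 ratios, the gene totals ran from Ccnd3 at -0.98 through Ccnd1 at -0.70, Cdk4 at -0.32 and Cdkn1a at -0.025 to Cdkn1b at 0.53. With no value per sample, the order cannot be set against a spread, so no neighbours in it can be said to differ. The median log2 ratio over the 8505 genes with both totals above 0 was 0.019, and the 5th and 95th percentiles were -0.96 and 1.03. The sum of the whole table was 344210 with simvastatin and 394749 in control. Scaling each group to its sum moves every log2 ratio up by 0.198, and under it Cdkn1b stood at 0.73, Cdk4 at -0.12, Ccnd1 at -0.50 and Ccnd3 at -0.78. The members other than Cdkn1a kept their sign.

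DNA replication genes were lower with simvastatin as a group. The list was chosen with earlier results of these data known, so its counts describe that fall and give no separate support for it. Of 50 measured, 7 fell and 0 rose by the authors' adjusted p in the authors' deposited table, each gene taken by its most abundant transcript, where 1.39% of all genes fell and 1.76% rose. The 7 were Mcm2, Mcm3 and Mcm4 of the replicative helicase, the licensing factor Cdt1, the ribonucleotide reductase subunit Rrm2, the primase subunit Prim1 and the chromatin assembly subunit Chaf1a, the last pair named after their values had been seen. Mcm2 had 66.5 with simvastatin and 122 in control, a fold of -1.83 with adjusted p = 0.042 in the authors' deposited table. Mcm5 had 15.5 with simvastatin and 31.8 in control and did not pass, with adjusted p = 0.281 in the authors' deposited table. Lower values with an unadjusted p under 0.05 were given for 31 of the 50 in the authors' deposited table, beside 14.9% of all genes, and 24 carried the authors' own call as lower, beside 5.5%. Gene totals were lower for 46 of the 50, beside 48.3% of all genes, with a median log2 ratio of -0.79.

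Beside that median of -0.79, Ccnd1 at -0.70 and Ccnd3 at -0.98 were the members with ratios of like size and sign. Neither passed the threshold in the authors' deposited table, where Ccnd1 had adjusted p = 0.116 and no Ccnd3 transcript had one under 0.516. Of the 4 Ccnd3 transcripts, 3 had higher values with simvastatin. A lower log2 ratio than that of Ccnd3 was seen for 14 of the 50 replication genes, than that of Ccnd1 for 29, than that of Cdk4 for 42, than that of Cdkn1a for 46 and than that of Cdkn1b for 50. Cdkn1b was the 1 member with higher values in all its transcripts, and it had the smallest adjusted p of the members, 0.069. Cdkn1a had almost equal totals in the groups. The values come from the same cells at 1 time, so which of these differences came first cannot be told apart. In bulk RNA, fewer cells in S phase and less of these RNAs in each cell cannot be told apart either. Of 34 measured G2 and mitosis genes, 8 fell and 0 rose in the authors' deposited table, beside 1.39% and 1.76% of all genes. Their median log2 ratio was -0.81. Cdc20, which triggers anaphase, had 22.3 with simvastatin and 49.7 in control, a fold of -2.22 with adjusted p = 0.049 in the authors' deposited table. Ccnb2, which encodes cyclin B2, had 23.0 with simvastatin and 49.9 in control, a fold of -2.17 with adjusted p = 0.042 in the authors' deposited table. Aurkb, a kinase of chromosome segregation, fell 2.08-fold (adjusted p = 0.042) and Cdk1, the mitotic kinase, fell 1.98-fold (adjusted p = 0.038) in the authors' deposited table.

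**Figure D4:**
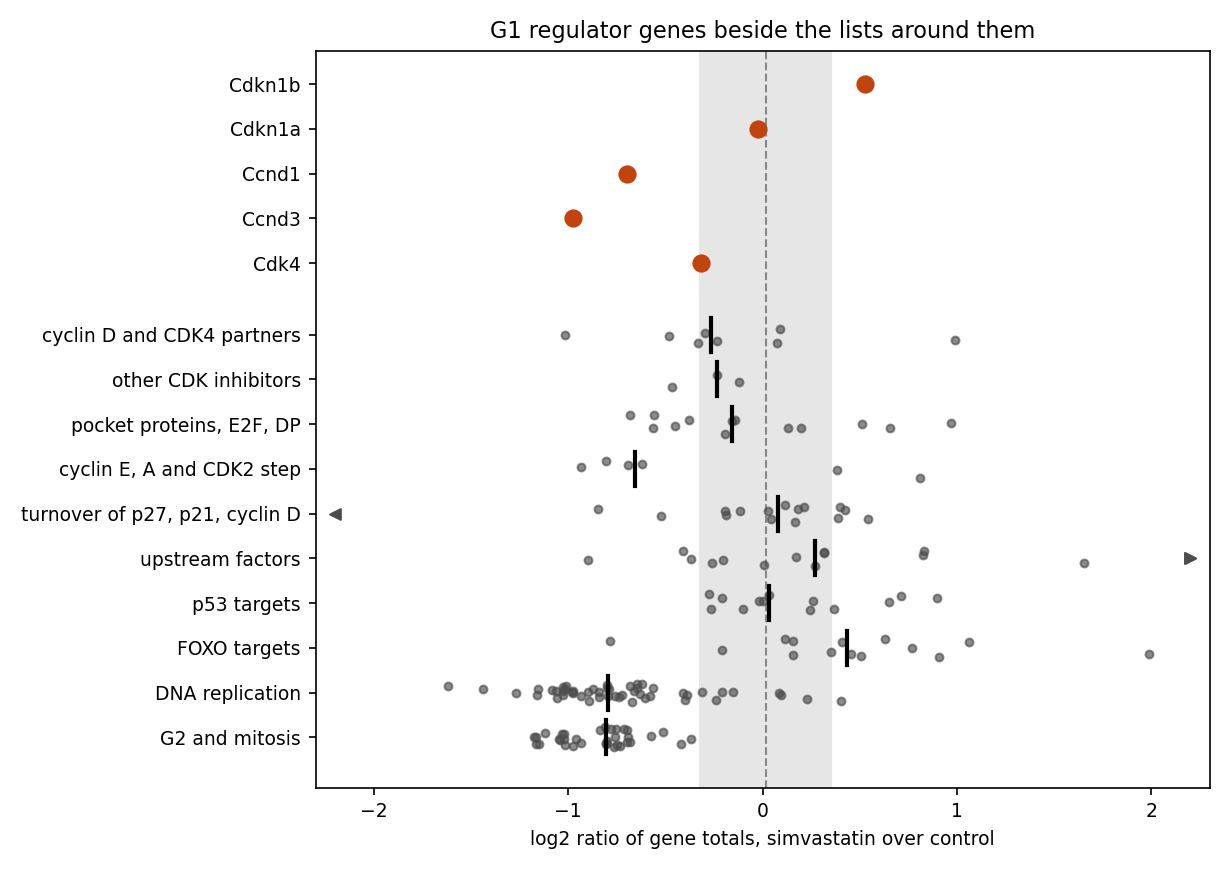
Log2 ratio of gene totals, simvastatin over control, for the 5 members (large circles) and for the genes of 10 lists (small circles, median as a black bar), with the middle 50% of all genes shaded and their median dashed. Cdkn1b lies to the right of the shaded range, Ccnd1 and Ccnd3 lie to its left near the medians of the replication (-0.79) and mitosis (-0.81) lists, and 3 genes beyond 2.2 in size are arrowheads at the edge.

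The partners and paralogs of the D cyclins and CDK4 showed no change that passed, with 0 of 8 genes either way in the authors' deposited table. The share over all genes was 3.15%, and the median log2 ratio of the 8 was -0.27. Hsp90ab1, the chaperone that with Cdc37 folds CDK4, had 629 with simvastatin and 741 in control, with adjusted p = 0.095 in the authors' deposited table. For its paralog Hsp90aa1 the values were 234 with simvastatin and 243 in control, with adjusted p = 0.940 in the authors' deposited table. A model of Hsp90aa1 assembled from the reads did pass, with 0.76 with simvastatin and 249 in control (adjusted p = 0.043 in the authors' deposited table). The Hsp90aa1 total was 251 with simvastatin and 508 in control, a log2 ratio of -1.02. The part of the division of reads among transcripts in these values was not tested. Ccnd2, which encodes cyclin D2, was named after its values had been seen: its 6 transcripts had a total of 121 with simvastatin and 152 in control, and the most abundant one had adjusted p = 0.742 in the authors' deposited table. Of the other genes listed as CDK inhibitors by their names, 3 of 6 were measured and 0 passed in the authors' deposited table, beside 3.15% of all genes. Cdkn2d, which encodes the CDK4 and CDK6 inhibitor p19, had 16.8 with simvastatin and 26.6 in control (adjusted p = 0.551 in the authors' deposited table). Cdkn2c, which encodes p18 of the same family, had 18.4 with simvastatin and 23.5 in control (adjusted p = 0.329 in the authors' deposited table). The other measured gene, Cdkn3, is not of that family and was named after its values had been seen. It had 3.84 with simvastatin and 4.18 in control (adjusted p = 0.984 in the authors' deposited table).

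Downstream of cyclin D and CDK4, 1 of 13 pocket protein, E2F and DP genes fell and 0 rose in the authors' deposited table. Over all genes, 1.39% fell and 1.76% rose by the same rule. E2f1, an activator of replication genes, had 10.5 with simvastatin and 12.8 in control (fold -1.23, adjusted p = 0.042 in the authors' deposited table). In the cyclin E, cyclin A and CDK2 step, 1 of 6 genes fell and 0 rose in the authors' deposited table, with a median log2 ratio of -0.66. That gene was Cks2, a small subunit of CDK complexes, with 21.9 with simvastatin and 35.4 in control (fold -1.62, adjusted p = 0.046 in the authors' deposited table). Ccne1, which encodes cyclin E1, was named after its values had been seen and had 11.3 with simvastatin and 19.7 in control, with adjusted p = 0.053 in the authors' deposited table.

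Genes for the turnover of p27, p21 and cyclin D proteins gave 1 of 16 higher and 1 lower past the threshold in the authors' deposited table. The shares over all genes were 1.76% higher and 1.39% lower. Dtl, the substrate receptor of the CUL4 ligase that marks p21 and CDT1 for breakdown, fell 1.63-fold in the authors' deposited table, with 9.59 with simvastatin and 15.6 in control (adjusted p = 0.042). Ddb1, the adaptor of the same ligase, rose 1.31-fold in the authors' deposited table, with 205 with simvastatin and 156 in control (adjusted p = 0.042). Skp2, the receptor that marks p27, was named after its values had been seen and had 4.44 with simvastatin and 6.37 in control, with adjusted p = 0.223 in the authors' deposited table.

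Of 15 measured transcription factors known to act on D cyclin, p21 or p27 genes, 3 rose and 0 fell in the authors' deposited table. Over all genes, 1.76% rose and 1.39% fell by the same rule. The 3 that rose were all Krüppel-like factors, of which KLF4 and KLF6 are known activators of the p21 gene. The list was chosen with earlier results of these data known, so their presence in it is no separate result. Klf2 had 15.7 with simvastatin and 0.51 in control, a fold of 30.9 with adjusted p = 0.038 in the authors' deposited table. Klf4 had 21.3 with simvastatin and 0.84 in control, a fold of 25.3 with adjusted p = 0.042 in the authors' deposited table. Klf6 had 77.8 with simvastatin and 25.3 in control, a fold of 3.08 with adjusted p = 0.025 in the authors' deposited table. The Cdkn1a totals were 119 with simvastatin and 121 in control, and whether these factors acted on Cdkn1a or any other member was not tested.

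Other genes that share known regulators with the inhibitors were read in the same way. Of the p53 targets other than Cdkn1a, 13 of 24 were measured and 0 passed in the authors' deposited table, beside 3.15% of all genes. The median log2 ratio of these targets was 0.03. An unadjusted p under 0.05 was given for 5 of them with higher and 2 with lower values in the authors' deposited table, beside 13.6% and 14.9% of all genes. The authors' own call was given to 2 as higher, beside 6.91% of all genes, and to 0 as lower. These were Bbc3, a BH3-only cell death gene, with 10.1 with simvastatin and 5.44 in control (fold 1.86, adjusted p = 0.116 in the authors' deposited table), and Trp53inp1, with 35.8 with simvastatin and 23.2 in control (fold 1.54, adjusted p = 0.152 in the authors' deposited table), both named after their values had been seen. Ccng1, a cyclin G, had 99.4 with simvastatin and 107 in control (adjusted p = 0.229 in the authors' deposited table), and Phlda3, an AKT inhibitor, had 61.8 with simvastatin and 74.9 in control (adjusted p = 0.146). Of 14 measured FOXO targets other than Cdkn1b, 1 rose and 0 fell in the authors' deposited table, beside 1.76% and 1.39% of all genes. Of the 14, 12 had a higher and 2 a lower total, where 48.3% of all genes had a lower one. Their median log2 ratio was 0.43. An unadjusted p under 0.05 was given for 4 of the 14 with higher and 0 with lower values in the authors' deposited table, beside 13.6% and 14.9% of all genes. The authors' own call was given to 3 as higher and 0 as lower, beside 6.91% and 5.5% of all genes. Those 3 were Pink1, Sesn3 and Fbxo32, the last pair named after their values had been seen. The gene that rose past the threshold was Pink1, a mitochondrial quality control kinase. It had 18.8 with simvastatin and 10.0 in control (fold 1.88, adjusted p = 0.048 in the authors' deposited table).

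The labelled cell type was checked against its markers. All 10 melanocyte and melanoma markers were measured, and 1 of them passed, beside 3.15% of all genes. It was Gpnmb, with 1856 with simvastatin and 1060 in control (fold 1.75, adjusted p = 0.042 in the authors' deposited table). The summed totals of the 10 markers were 11775 with simvastatin and 8262 in control. Their median log2 ratio was 0.27, with 9 totals higher and 1 lower. Of 12 markers of immune, epithelial, fibroblast and endothelial cells 1 was measured, Cd68, with 0.93 with simvastatin and 0.37 in control. The part of the melanocyte marker difference in the G1 results was not tested.

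Among the authors' deposited enrichment terms, 9 of 148 listed a member. It was Ccnd1 in each case, and all 9 were terms of genes with lower values. The terms were built from genes with the authors' call, which no other member had, so no other member could be listed. The term for the G1/S transition of the mitotic cell cycle held 9 genes with 7.46-fold enrichment and an adjusted p of 0.00105 in the authors' deposited table. Those genes were Ccnd1, Ccne1, Cdk1, E2f1, Cdc25a, Pole, Nasp, Rps6 and Camk2d. Totals of 8 of the 9 were lower with simvastatin, and that of Camk2d was higher, at 31.4 with simvastatin and 19.3 in control. Because the term holds genes picked for lower values in these same data, the lower totals follow from that choice and support nothing. The broader cell cycle term held 95 genes with 8.0-fold enrichment (adjusted p 6.46e-53 in the authors' deposited table), and cellular senescence held 14 with 2.44-fold enrichment (adjusted p 0.0705 in the authors' deposited table). None of the 5 members was among the 117 genes of the deposited interaction network, the 46 of the aggressiveness table or the 158 of the comparison with A375 melanoma cells. These sets are small beside the 8513 genes measured, so 0 of 5 is no result about the members.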

How the data were processed

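RNA sequencing was done on 3 simvastatin and 3 control samples, grouped here by their titles, with stranded total RNA libraries per the labels' protocols. HISAT2 2.0.5, StringTie and GRCm38 (mm10) are named in the submitters' processing notes. The sources used here do not give the filter, the counting, the test or the depth of each sample.

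Per the file headers, the authors deposited 1 expression signal for each transcript and group, a signed fold score, a p-value and an adjusted p-value, printed to 3 decimals. The unit of the signal is not stated, no column of per-sample values was among the files, and no test was refitted. The labels call the samples biological replicates, and the spread that the p-values rest on cannot be checked without per-sample values. The enrichment terms, per the file headers from DAVID, and the other deposited tables were used for membership and term values.

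Values were summed per gene and compared as log2 ratios with no pseudocount, and a gene was called by its most abundant transcript at the authors' adjusted p under 0.05. The counting steps were tested on simulated data. The members and the 12 lists, with 183 of 226 entries measured, were chosen with earlier results of these data known. All members were named. In each list up to 4 genes past the threshold with the largest folds were named, or the 2 of highest deposited value where none passed, which picks names and ranks no levels, besides Mcm2, Mcm3, Mcm4 and Mcm5 and genes said to be chosen later. Transcript structures came from GENCODE mouse release 21, promoters from RefSeq GRCm38.p6, where 4 of 5 members matched. Python 3.11.15, pandas 2.3.3 and matplotlib 3.10.9 were used. Alternatives were the threshold, the transcripts summed, a pseudocount of 1, a minimum mean value of 1 and scaling to the group sums.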

Additional observations from a re-analysis of the deposited data

How the results depend on the processing

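No paired analysis was possible because only 1 value per group was given, and for the same reason leaving out samples and refitting per-sample counts were not run. Against main log2 ratios of 0.53 for Cdkn1b, -0.025 for Cdkn1a, -0.70 for Ccnd1, -0.98 for Ccnd3 and -0.32 for Cdk4, scaling each group to its sum gave 0.73, 0.17, -0.50, -0.78 and -0.12, and -0.60 in place of -0.79 for the replication median. The most abundant transcript alone gave 0.56 for Cdkn1b, 0.013 for Cdkn1a, -1.43 for Ccnd3 and -0.43 for Cdk4. With 1 added to each total the ratios were 0.51 for Cdkn1b, -0.69 for Ccnd1 and -0.97 for Ccnd3, and Ensembl transcripts alone gave -0.29 for Cdk4. The other settings tried left these ratios within rounding, and the sign of Cdkn1a was the only one among the members to turn.

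The count of members past the threshold was 0, where 3.15% of all genes passed. It was 1 (Ccnd1) at an adjusted p of at most 0.2 with a fold of at least 1.5. At an adjusted p under 0.1 it was 1 (Cdkn1b). At an unadjusted p under 0.05 in the authors' deposited table it was 3 of 5, beside 28.5% of all genes. In the same order, genes past the threshold in the 10 pathway lists numbered 62, 53 and 92 in place of 23 of 172. Lower replication genes numbered 24, 17 and 31 in place of 7. Of the 23, 7 were replication and 8 mitosis genes, from lists chosen with earlier results known. The authors' own call, nearly the first of these cuts, marked 6.91% of all genes as higher and 5.5% as lower. At an unadjusted p under 0.05, 14.9% of all genes were lower. No share over all genes was computed for an adjusted p under 0.1. Counts that grow with a looser cut are no result about the members or the lists. Of 88 further values for single lists, 45 were the same and 43 differed, and the pocket protein and E2F median turned from -0.16 to 0.04 when scaled. Taking any transcript, Ensembl transcripts alone or values of at least 1 left the member count at 0. No depth or per-sample precision is known.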
